A study of Homo sapiens with 2 samples.

Results

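The short arm of chromosome 19 (19p) held 731 of the 22351 HNRNPK peaks in the list analysed here, 3.27% of all peaks. A peak was counted to the arm when it was listed on chromosome 19 with its midpoint on the short arm, whose end was set within the centromere near 24 Mb of GRCh38, so the members were chosen by the measured peak calls and their positions. Their number and density are therefore given as descriptions, without a test. The other arm, 19q, held 1464 peaks, chromosome 17 held 1325, and chromosomes 1 to 22, X and Y without chromosome 19 held 19904, called the other chromosomes here. The peaks were measured by ChIP-seq in untreated H1299 cells, a lung cancer cell line. One library was an immunoprecipitation (IP) with an HNRNPK antibody, and the other was the input of the same cells, to which no antibody had been added. There was 1 library of each kind, so no value carries a replicate error. Intervals in parentheses are 95% intervals, of Wilson for a share, exact Poisson for a number of peaks and from order statistics for a median, and they cover counting error only. The last peak inside the limit lay at chr19:23531839-23532182, with a fold enrichment of 3.34 and a pileup of 5.84. The first peak beyond it lay at chr19:27640192-27640486, across the centromere, with a fold enrichment of 3.35 and a pileup of 10.7.

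HNRNPK is an RNA- and DNA-binding protein whose KH domains prefer stretches rich in C, and it takes part in transcription, splicing, RNA export and translation. It is known for binding the C-rich element of the MYC promoter as a single strand. The short arm of chromosome 19 is among the most gene-rich parts of the human genome, is rich in GC, and carries families of genes in tandem, among them KRAB zinc finger genes, olfactory receptors and cytochromes P450 of the CYP4F group.

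The annotated start of 6 protein-coding genes of the arm lay within a peak, and their promoters are described because they are where a peak and a start coincide. The window of MAN2B1 overlaps that of WDR83, so only 5 are written out. The windows run from 250 bases before the start to 50 after it, are taken from RefSeq (GRCh38.p14), and are written 5′ to 3′ on the strand of the gene. Capitals mark the bases that lie within the peak.
AZU1, chr19:827587-827886, strand +: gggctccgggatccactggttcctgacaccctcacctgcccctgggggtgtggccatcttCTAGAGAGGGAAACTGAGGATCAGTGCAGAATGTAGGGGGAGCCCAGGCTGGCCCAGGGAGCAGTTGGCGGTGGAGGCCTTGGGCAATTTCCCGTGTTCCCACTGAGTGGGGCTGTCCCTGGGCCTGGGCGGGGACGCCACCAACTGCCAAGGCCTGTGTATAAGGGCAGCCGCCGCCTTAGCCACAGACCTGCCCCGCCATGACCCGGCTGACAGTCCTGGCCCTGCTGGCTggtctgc
WDR83, chr19:12666557-12666856, strand +: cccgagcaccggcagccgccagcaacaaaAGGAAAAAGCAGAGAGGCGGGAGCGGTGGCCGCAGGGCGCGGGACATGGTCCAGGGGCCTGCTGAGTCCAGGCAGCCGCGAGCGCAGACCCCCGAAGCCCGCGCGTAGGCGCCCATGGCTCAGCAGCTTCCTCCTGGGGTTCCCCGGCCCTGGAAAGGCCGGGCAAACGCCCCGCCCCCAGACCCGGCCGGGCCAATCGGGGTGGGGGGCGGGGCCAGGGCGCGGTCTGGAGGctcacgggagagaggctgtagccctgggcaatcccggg
LYL1, chr19:13102809-13103108, strand -: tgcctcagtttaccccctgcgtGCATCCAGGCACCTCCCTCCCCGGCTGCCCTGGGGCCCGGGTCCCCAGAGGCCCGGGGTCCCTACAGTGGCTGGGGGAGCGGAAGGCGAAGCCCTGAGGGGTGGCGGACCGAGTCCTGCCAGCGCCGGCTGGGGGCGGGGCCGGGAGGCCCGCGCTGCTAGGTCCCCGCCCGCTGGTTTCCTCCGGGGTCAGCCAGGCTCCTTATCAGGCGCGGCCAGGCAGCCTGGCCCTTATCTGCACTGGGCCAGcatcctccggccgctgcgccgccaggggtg
OR10H5, chr19:15787411-15787710, strand +: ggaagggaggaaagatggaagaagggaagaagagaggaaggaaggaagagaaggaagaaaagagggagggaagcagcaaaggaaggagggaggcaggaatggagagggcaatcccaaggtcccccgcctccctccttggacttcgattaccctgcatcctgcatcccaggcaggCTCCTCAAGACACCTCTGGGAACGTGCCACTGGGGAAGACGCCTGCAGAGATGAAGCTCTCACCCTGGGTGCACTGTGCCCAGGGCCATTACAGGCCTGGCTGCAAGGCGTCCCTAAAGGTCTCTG
CIST1, chr19:18255370-18255669, strand -: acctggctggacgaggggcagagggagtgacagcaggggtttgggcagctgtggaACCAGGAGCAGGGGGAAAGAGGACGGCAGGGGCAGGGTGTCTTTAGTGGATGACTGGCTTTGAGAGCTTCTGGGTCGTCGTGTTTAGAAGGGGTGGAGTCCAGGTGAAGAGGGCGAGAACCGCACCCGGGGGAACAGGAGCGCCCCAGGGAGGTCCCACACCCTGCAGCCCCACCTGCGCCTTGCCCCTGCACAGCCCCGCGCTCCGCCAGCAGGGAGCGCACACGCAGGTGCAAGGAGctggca
AZU1 encodes azurocidin, an antibacterial protein of neutrophil granules, and its peak had a pileup of 6.81 and a fold enrichment of 3.23. WDR83, a WD-repeat protein, and MAN2B1, the lysosomal alpha-mannosidase, are transcribed away from each other, and their starts at 12666807 and 12666742 lay in the same peak of 233 bp, with a pileup of 7.79 and a fold enrichment of 3.20. LYL1, a basic helix-loop-helix transcription factor of blood cells, had a peak of 248 bp over its start with a pileup of 8.76 and a fold enrichment of 3.88. OR10H5, an olfactory receptor gene, had a peak with a pileup of 7.79 and a fold enrichment of 3.89. The peak at CIST1 had the highest pileup of these, 10.7, and a fold enrichment of 4.84, and it was the only one of the 5 peaks with a false discovery rate (FDR) under 0.05, at 0.00712. The part of the window under the peak was 77.8% G or C at MAN2B1, 75.4% at LYL1, 75.1% at WDR83, 66.5% at CIST1, 65.7% at AZU1 and 61.1% at OR10H5.

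The letters GCGAGG and CTAATG, motifs that the study names for these data, and CCCTCCC, a part of the C-rich element, were searched on both strands of the 6 windows. CCCTCCC occurred at LYL1, inside the peak and beginning at position -214 from the start, and at OR10H5 on the opposite strand at position -187, outside the peak. The other motifs occurred in 0 of these windows, which says only that the letters are not in the stretch searched. Among the 22198 promoter windows of protein-coding genes in the table, 27.0% held GCGAGG, 5.18% held CTAATG and 31.1% held CCCTCCC. Among the 651 windows of 19p the shares were 26.0% (22.7% to 29.5%), 3.69% (2.49% to 5.43%) and 35.0% (31.5% to 38.8%). Of the 13 windows of 19p that a peak overlapped, 2 held GCGAGG (4.33% to 42.2%) and 0 held CTAATG (0% to 22.8%). CCCTCCC occurred in 7 of the 13, 53.8% (29.1% to 76.8%). Each interval included the share of all 19p windows. A match is a description of the reference sequence and not a measured site. The median G and C content of the 19p windows was 65.0%, against 62.3% on the other chromosomes. It was 66.8% (65.3% to 68.7%) for the 212 genes of the arm with a peak in their span and 63.3% (61.7% to 64.7%) for the 295 without, and the part of base composition in the number of peaks was not tested.

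Peaks were denser on 19p than on any other chromosome or arm compared except 19q. The arm had 30 peaks per Mb (27.8 to 32.2), against 42.8 on 19q (40.6 to 45.0), 15.9 on chromosome 17 (15.1 to 16.8) and 6.57 on the other chromosomes together (6.48 to 6.66). The ratio to the other chromosomes was 4.56 (4.23 to 4.91). Genes were dense in nearly the same proportion. The arm had 24.9 protein-coding genes per Mb, the highest of the 25 chromosomes and arms, against 6.09 on the other chromosomes, a ratio of 4.08. Per protein-coding gene, 19p had 1.20 peaks (1.12 to 1.29), which ranked 13 of 25, and the other chromosomes had 1.08. The long arm, with 23.5 genes per Mb, had 1.82 peaks per gene (1.73 to 1.92), the highest of the 25. The arms of chromosome 19 were thus alike in gene density and unlike in peaks per gene. The part of gene density in the number of peaks was not tested.

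Along the arm, peaks were most numerous at the end of the chromosome and few next to the centromere. The first 1-Mb window held 62 peaks (47.5 to 79.5), the highest number of the arm, and windows 18 and 2 followed with 52 and 50. The 4.40 Mb beyond 20 Mb held 28 peaks in all, 6.36 per Mb (4.23 to 9.20), against 703 peaks or 35.2 per Mb (32.6 to 37.8) in the first 20 Mb. Of the 34 protein-coding genes in that last stretch 32 were zinc finger genes, and its density was near that of the other chromosomes. Zinc finger genes were counted here and below by a symbol beginning with ZNF, so those with other names are not included. Within the first 20 Mb, windows with many zinc finger genes were also low. Window 13 had the most protein-coding genes, 41 of which 15 were zinc finger genes, but only 20 peaks (12.2 to 30.9). Window 14 had 17 genes, none of them with a ZNF symbol, and 42 peaks (30.3 to 56.8), of which 16 lay in CACNA1A. Window 17, with 19 genes and none with a ZNF symbol, had 27 peaks (17.8 to 39.3). Over the 24 full windows, the number of peaks and of protein-coding genes had a Pearson's r of 0.69 and a Spearman's rank correlation of 0.60. Over the first 20 windows they were 0.29 and 0.32, so the relation rested largely on the sparse windows next to the centromere. Windows are neighbours on 1 arm in 1 pair of libraries, so these values only describe it.

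In the classes from 10 to 39 genes, windows held more peaks on average on 19p than on the other chromosomes, while the only window of the arm with 40 genes or more held 20, against a mean of 24 in 22 windows elsewhere. The 8 windows of the arm with 30 to 39 protein-coding genes had 41.4 peaks on average, from 22 to 62, and the 42 such windows of the other chromosomes had 20, from 0 to 57. With 20 to 29 genes, the 9 windows of the arm had 31.4 peaks on average, from 19 to 43, and 111 windows elsewhere had 18.2, from 0 to 63. The ranges overlapped in each class. With up to 9 genes, the 3 windows of the arm averaged 7.33 peaks on 7.67 genes, and the 2427 windows of the other chromosomes averaged 4.48 peaks on 3.20 genes, which is more peaks per gene than on 19p.

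Neighbouring peaks of 19p were a median of 17.8 kb apart from midpoint to midpoint (14.8 to 20.1), over 730 distances. The median was 42.3 kb (41.0 to 43.6) on the other chromosomes, 23.3 kb (20.9 to 26.3) on chromosome 17 and 6.87 kb (6.13 to 7.69) on 19q. Distances on the arm were uneven but less so than in the groups compared. Their mean was 1.81 times their median, against 3.08 on 19q, 2.70 on chromosome 17 and 3.5 on the other chromosomes. The last value pools whole chromosomes, with medians from 12.8 kb on Y to 399 kb on chromosome 13. It includes distances across centromeres, and the longest distance was 45534 kb. The part of pooling and of centromeres in the 3.5 was not tested. Distances of 100 kb or more made up 5.75% of those on 19p (4.28% to 7.69%) and 29.6% of those on the other chromosomes (29% to 30.2%). Short distances were also more common than on the other chromosomes, with 22.6% under 5 kb (19.7% to 25.8%) against 13.3% (12.8% to 13.8%). Beyond 20 Mb the median distance was 57.0 kb (41.8 to 186). The 5 longest distances of the arm, from 260 to 568 kb, all spanned zinc finger genes. The longest ran from 20284923 to 20852415 and passed over 4 protein-coding genes, of which 3 were zinc finger genes.

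Some of the peaks on 19p stood in close groups. Distances under 1 kb numbered 37, or 5.07% (3.70% to 6.91%), against 2.64% (2.43% to 2.87%) on the other chromosomes. Counting peaks with fewer than 1000 bp between the end of a peak and the start of the next as a run, 110 peaks formed 52 runs, of which 6 had 3 peaks. The longest run, 3430 bp, lay at chr19:13153136-13156565 and began in IER2, an immediate early gene. It ended with the longest peak of the arm, 1490 bp, which lay 0.909 kb beyond the gene by its midpoint, had a pileup of 15.6 and an FDR of 0.0472. A run of 2839 bp at chr19:11209326-11212164 in DOCK6 held the peak with the highest fold enrichment of the arm. DOCK6 encodes an exchange factor for small GTPases. Other runs of 3 peaks lay in IQCN and in CIMAP1D, and those at chr19:393063-396007 and chr19:17864438-17866781 lay in no annotated gene, with fold enrichments up to 5.41 and 5.66.

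Peaks of 19p were slightly longer than those of the other chromosomes together and shorter than those of 19q, and the interval of their median overlapped that of chromosome 17. Their median length was 289 bp (273 to 300), against 268 bp (267 to 270) on the other chromosomes, 280 bp (273 to 287) on chromosome 17 and 314 bp (307 to 321) on 19q. The shortest length in the list, 233 bp, was found for 27.2% of the 19p peaks (24.1% to 30.6%) and for 33.5% (32.8% to 34.1%) on the other chromosomes. Peaks of 500 bp or more made up 9.30% (7.40% to 11.6%), or 68 peaks, against 5.40% (5.09% to 5.72%). At equal height the median was also higher on 19p, with 266 bp against 242 bp for peaks of 6 fragments, 282 bp against 256 bp for 7 and 283 bp (266 to 303) against 263 bp (261 to 267) for 8, although the intervals overlapped at each height. The second longest peak of the arm, 1165 bp, lay in PIP5K1C, which encodes a kinase of phosphatidylinositol phosphate, and had a fold enrichment of 6.98. Another of 1074 bp lay in MIR23AHG, the host gene of a microRNA cluster, and peaks of 949 bp and 890 bp lay in GZMM, a granzyme gene, and EEF2, which encodes a translation elongation factor. The peak in EEF2 rested on 7 fragments and had an FDR of 0.350.

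The pileup is the coverage of the IP within a peak in scaled fragments, and 1 fragment was worth 0.973. Its median on 19p was 7.79, or 8 fragments, the same as on chromosome 17 and on the other chromosomes, while 19q had 11.7. Pileups of 6.81 and 7.79 together with 8.76 were the most common, with 177, 176 and 129 peaks. The range on the arm was 4.87 to 35.1. The local background is the coverage that the peak caller set against the IP, recovered from the pileup and the fold enrichment. Its median was 1.28 (1.26 to 1.31) on 19p, 1.23 on the other chromosomes, 1.40 on chromosome 17 and 3.0 on 19q. A background of 2 or more, with a tolerance of 0.01 below it for rounding, was found for 15.5% of the 19p peaks (13% to 18.3%), 21.0% of those on the other chromosomes (20.4% to 21.6%) and 90.5% of those on 19q (88.9% to 91.9%). The higher pileups of 19q thus came with a higher background, and the density of peaks on 19p came with a background close to that of the other chromosomes. Copy number in H1299 cells was not measured here, and its part in the step between the arms was not tested.

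**Figure D1:**
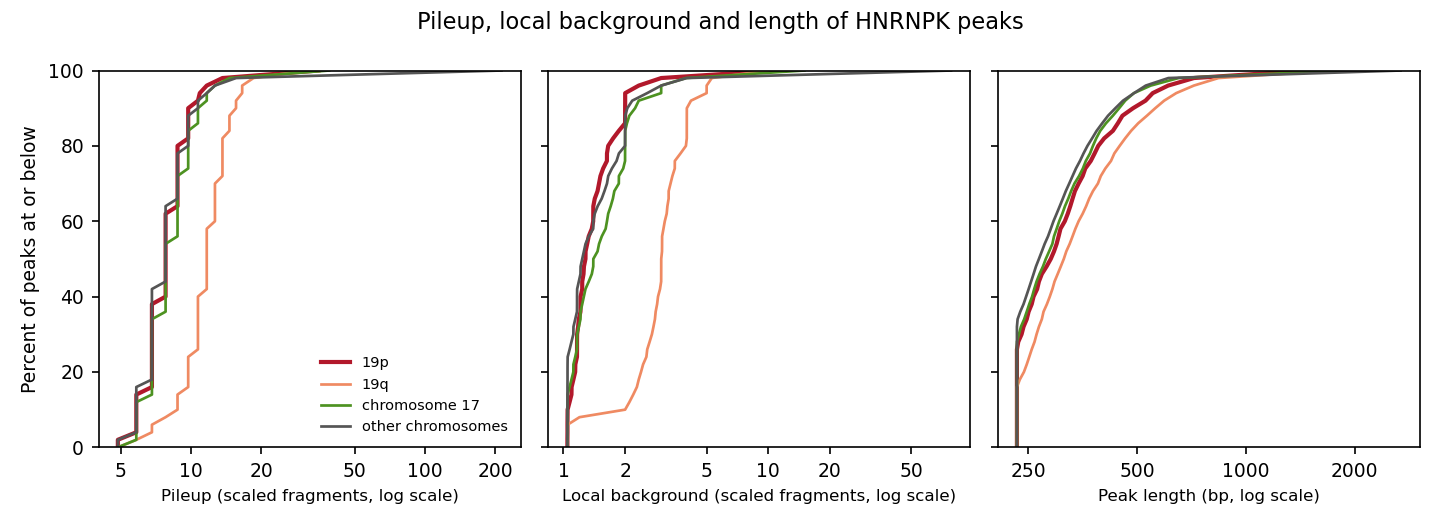
Percent of peaks at or below a pileup (left), a local background (middle) and a length (right), each on a log scale, for 19p, 19q, chromosome 17 and the other chromosomes. The curves of 19p and the other chromosomes lie close together for pileup and background, with medians of 7.79 and of 1.28 and 1.23, while 19q is shifted to 11.7 and 3.0.

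Fold enrichment is the pileup over the local background after adding 1 to each. Its median was 3.65 (3.58 to 3.70) on 19p, 3.61 (3.59 to 3.61) on the other chromosomes and 3.17 (3.15 to 3.20) on 19q. An FDR under 0.05 was listed for 128 of the 731 peaks, 17.5% (14.9% to 20.4%), where the share over the whole list was 15.5%. The share was 14.7% (14.2% to 15.2%) on the other chromosomes and 20.8% (18.8% to 22.9%) on 19q. Most peaks of the arm were therefore weak calls. In the first 1 Mb, 22 of 62 peaks had an FDR under 0.05, 35.5% (24.7% to 47.9%), and among peaks of 500 bp or more 25 of 68 did, 36.8% (26.3% to 48.6%).

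The highest fold enrichment of the arm was 7.04, at chr19:11209326-11209995 in DOCK6, where the pileup was 17.5 and the FDR 3.17e-08. A further peak of DOCK6 reached 5.99. The peak in PIP5K1C followed with 6.98, and one at chr19:16985352-16985829 in CPAMD8, a gene of the complement C3 and alpha-2-macroglobulin family, had 6.45. The noncoding gene LINC01002, near the end of the chromosome, had 6.05, and DNM2, which encodes the dynamin of endocytosis, had 5.93. RFX2, a transcription factor of ciliary genes, had 5.85, CFD, complement factor D, had 5.72, and NFIC, a transcription factor of the nuclear factor I family, had 5.69. The 10th lay in no gene, 3.79 kb from ZNF799, with 5.67. The local background of these 10 peaks was between 1.05 and 3.0.

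The highest pileups were found in another place. Of the 10 peaks with the highest pileup, 6 lay within 30.4 kb at chr19:8741070-8771479, in no annotated gene, between the olfactory receptor gene OR2Z1, which ended 8.91 kb before them, and ZNF558, which began 34.7 kb after them. Their pileups were 20.4 to 35.1 and their fold enrichments 2.44 to 5.01. Their local background was 4.0 to 11, with a median of 5.52, which is 4.31 times that of the arm. Its part in these pileups was not tested. The other 4 lay in genes. A pair at MED16, a subunit of the Mediator complex of transcription, had pileups of 27.3 and 22.4 over backgrounds of 5.0 and 6.0. The peak in RFX2 had 22.4 over 3.0, and the leading peak in DOCK6 had 17.5 over 1.63.

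Peaks of 19p lay in protein-coding genes more often than those of the other chromosomes or chromosome 17, and the interval overlapped that of 19q. The midpoint was inside such a gene for 494 peaks, 67.6% (64.1% to 70.9%), against 49.5% (48.8% to 50.2%) on the other chromosomes, 57.2% (54.5% to 59.8%) on chromosome 17 and 62.3% (59.8% to 64.7%) on 19q. Protein-coding genes also covered more of the arm, 59.5% of its length against 40.6% on the other chromosomes, 53.0% on chromosome 17 and 49.5% on 19q. The share of peaks was thus 1.14 times the share of length on 19p, 1.22 times on the other chromosomes, 1.08 times on chromosome 17 and 1.26 times on 19q. A further 45 peaks, 6.16% (4.63% to 8.14%), lay only in another kind of gene, and 192, 26.3% (23.2% to 29.6%), lay in none. In these 3 classes the median pileup, which moves in steps of 1 fragment, was 7.79 each. Their median fold enrichment was 3.65, 3.61 and 3.61. An FDR under 0.05 was listed for 16.4% (13.4% to 19.9%), 22.2% (12.5% to 36.3%) and 19.3% (14.3% to 25.4%) of their peaks, with overlapping intervals. Of the 607 protein-coding genes of the arm, 258 held a peak midpoint, 42.5% (38.6% to 46.5%), where the share over all chromosomes was 29.3%. On 19q it was 40.2% (36.9% to 43.7%). Of these 258 genes, 135 held 1 peak and 123 held more.

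Genes of 19p are short, with a median of 15.2 kb against 26.0 kb on the other chromosomes, so genes were also compared within classes of length. In each class the share of genes with a peak was higher on 19p than on the other chromosomes. The long arm was above 19p in the shorter classes, with 27.3% (20.4% to 35.6%) under 5 kb, 27.0% (20.3% to 34.8%) from 5 to 10 kb and 42.3% (36.3% to 48.6%) from 10 to 20 kb, where 19p had 39.3% (31.7% to 47.4%), and these intervals overlapped those of 19p. On 19p it was 18.8% (12.4% to 27.5%) of the genes under 5 kb, against 6.97% (6.10% to 7.96%) on the other chromosomes. The intervals of 19p and the other chromosomes overlapped only between 5 and 10 kb, where it was 21.6% (15.0% to 30.2%) against 15.5% (14.1% to 17.1%). From 20 to 50 kb it was 54.3% (47.1% to 61.4%) of 184 genes, against 27.5% (26.2% to 28.8%). From 50 to 100 kb 42 of 49 genes held a peak, 85.7% (73.3% to 92.9%), against 37.4% (35.6% to 39.2%). Of the 17 genes of 100 kb or more, 16 held a peak. On the other chromosomes the number of peaks per Mb of gene was 30.8 for genes under 5 kb and 5.78 for genes of 100 kb or more, while on 19p it was 75.5 and 29.1.

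The genes of the arm with the most peaks were mainly long. CACNA1A, which encodes the pore-forming subunit of the P/Q-type calcium channel, held 16 peaks over its 300 kb, with fold enrichments from 2.74 to 4.80 and an FDR under 0.05 for 4 of them. Their median distance was 9.26 kb. UNC13A, which primes synaptic vesicles for release, held 7 peaks in 87.0 kb with fold enrichments up to 5.18, and CIMAP1D, a gene for a protein of ciliary microtubules, held 7 in only 28.3 kb. NFIC held 6 in 109.6 kb, among them the one of 5.69. SBNO2, a transcriptional regulator of inflammation, and ADGRL1, an adhesion receptor of the latrophilin type, held 6 each, with fold enrichments up to 4.77 and 4.51. The 10 were completed by DOCK6, the histone demethylase gene KDM4B, GNG7, which encodes a G protein gamma subunit, and the glycosyltransferase gene B3GNT3, each with 5 peaks. These last 4 came from 11 genes with 5 peaks and were taken by their highest fold enrichment. Together the 10 genes held 68 peaks, 9.30% of the arm.

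Relative to length, other genes led. Among protein-coding genes of at least 5 kb with at least 3 peaks, ADAT3, which encodes a subunit of a tRNA deaminase, had 3.73 peaks per 10 kb, against 0.300 for the arm as a whole. It lies within SCAMP4, a gene of secretory carrier membrane proteins, which shared its 3 peaks and had 1.46. MADCAM1, a gut addressin that binds lymphocytes, had 3.39, from 3 peaks in 8.86 kb. B3GNT3 had 2.66, CIMAP1D had 2.48 and IQCN had 2.30. R3HDM4 had 1.79, the semaphorin gene SEMA6B had 1.76, KLHL26 had 1.44 and the lipid flippase gene ATP8B3 had 1.32. These 10 genes held 37 distinct peaks, of which 6 had an FDR under 0.05, 16.2% (7.65% to 31.1%), a share near that of the arm. They were 2 each in CIMAP1D and ATP8B3 and 1 each in B3GNT3 and R3HDM4, while the other 6 genes had 0.

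The zinc finger genes, most of which encode KRAB repressors of transposable elements and genes, were the largest family of the arm and were poor in peaks for the arm. Of 84 such genes, 19 held a peak, 22.6% (15.0% to 32.6%), against 42.5% of all protein-coding genes of the arm. The interval included the 29.3% over all chromosomes. Their median length of 28.5 kb was above that of all protein-coding genes of the arm. They held 25 peaks in 2.68 Mb of gene, 9.31 per Mb, against 33.3 per Mb for all protein-coding genes. The low share held in each stretch, with 5 of 21 genes in the first 10 Mb, 6 of 31 in the next and 8 of 32 beyond 20 Mb. ZNF90 held 3 peaks, with fold enrichments up to 3.81, and ZNF208, ZNF136, ZNF91 and ZNF730 held 2 each. The highest fold enrichment in the family was 5.01, in ZNF714. Among the 25 peaks, 3 had an FDR under 0.05, 12% (4.17% to 30%). This range included the 17.5% of the arm and the 15.5% of the whole list. Of 20 olfactory receptor genes, which are mostly short and silent outside the nose, 3 held a peak, 15.0% (5.24% to 36.0%). Their median length was 8.53 kb. The interval lay below the 42.5% of the arm but included the 21.6% of 19p genes of 5 to 10 kb.

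Genes of the lists for RNA metabolism, chromatin and cancer held peaks at shares above or near the 42.5% of all protein-coding genes of the arm. The share over all chromosomes was 29.3%. The intervals were wide, and that of the chromatin list included the 42.5%. Among 22 genes of RNA-binding and splicing factors 14 held a peak, 63.6% (43.0% to 80.3%), with 47.7 peaks per Mb of gene. CELF5 held 4, SUGP1 held 3, and the helicase of nonsense-mediated decay UPF1 held 3 with fold enrichments up to 5.18. POLR2E, an RNA polymerase subunit that the list also included, held 2. PTBP1 and HNRNPM, which like HNRNPK belong to the heterogeneous nuclear ribonucleoproteins, held 1 each, with fold enrichments of 4.06 and 3.81, and KHSRP, another KH-domain protein, held 0. Among 22 genes of chromatin, DNA methylation and some transcription factors 12 held a peak, 54.5% (34.7% to 73.1%), but these genes were long, with a median of 49.2 kb, and their 25.9 peaks per Mb lay below the 33.3 of all protein-coding genes of the arm. The most peaks were in the transcription factor gene NFIC and in KDM4B. TCF3 and NFIX, which also encode transcription factors, held 4 and 3, and the maintenance DNA methyltransferase DNMT1 held 3, while SMARCA4 held 1, with an FDR of 0.605. Among 32 cancer genes 22 held a peak, 68.8% (51.4% to 82.0%), at 33.0 per Mb, close to the 33.3 of all protein-coding genes of the arm. RFX1 held 5, and DNM2, CRTC1, INSR, NOTCH3 and TCF3 held 4 each. The lung cancer suppressors STK11 and KEAP1 held 0.

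The other lists were small. Of 13 immediate early and stress genes 6 held a peak, 46.2% (23.2% to 70.9%), led by SBNO2 with 6 and IER2 with 3, and the AP-1 genes JUNB and JUND held 0. Of 17 genes of ribosomal proteins, translation and the respiratory chain 4 held a peak, 23.5% (9.56% to 47.3%), among them EEF2 and NDUFB7 with 2 each. Of 22 cell surface and immune genes 11 held a peak, 50.0% (30.7% to 69.3%). They were led by ADGRL1 and by ADGRE5, another adhesion receptor, which held 3. Of 18 genes of CYP4F cytochromes and lipid metabolism 9 held a peak, 50.0% (29% to 71%). CYP4F8 and CYP4F11 held 1 each, the fatty acid ligase gene ACSBG2 held 3 with fold enrichments up to 5.14, and the lipid droplet gene PLIN5 held 2. The intervals of these 4 lists all included the 42.5% of the arm.

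Promoters were not where most peaks of the arm lay. Of the 731 peaks, 43 had their midpoint within 1 kb of a transcription start site (TSS) of a protein-coding gene, 5.88% (4.40% to 7.83%), against 4.13% (3.86% to 4.42%) on the other chromosomes without chromosome 8, whose starts were not used here. Within 500 bp the shares were 2.19% (1.35% to 3.53%) and 2.57% (2.35% to 2.80%), and on 19q 4.58% (3.62% to 5.77%). The 43 peaks near a TSS had a median fold enrichment of 3.61, against 3.65 for the arm. An FDR under 0.05 was listed for 5 of these 43, 11.6% (5.07% to 24.5%). That interval included the 17.5% of the arm and the 15.5% of the whole list. The starts came from the RefSeq windows, which covered 507 of the 607 protein-coding genes of the arm. A peak overlapped 13 of the 651 promoter windows of 19p, 2.0% (1.17% to 3.39%), and 1.69% (1.52% to 1.88%) of those on the other chromosomes. Besides the 6 genes described above, these belonged to BSG, TMED1, ZNF878, NDUFB7, PDE4C and PBX4, and at BSG, which encodes basigin, the peak had a fold enrichment of 4.88 and an FDR of 0.0063 but shared only 12 bases with the window. Position within the gene was taken for the 327 protein-coding genes of at least 10 kb whose strand was known from a promoter window, so other genes of that length, DOCK6 and ADGRL1 among them, were left out. The peaks were spread over the whole length. Of 374 peaks, counted once for each gene that held them, 9.63% (7.03% to 13%) lay in the first 10% of the gene, 5.35% (3.49% to 8.12%) in the next 10% and 12.6% (9.58% to 16.3%) in the last 10%. On the other chromosomes the first and the last 10% held 11.3% (10.6% to 12%) and 13.1% (12.4% to 13.9%).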

How the data were processed

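HNRNPK ChIP-seq of untreated H1299 cells comprised 1 IP library and 1 input library. Reads were processed by the authors. The submitters' processing notes name GRCh38, Trimmomatic 0.36, STAR 2.5.3a, MACS2, bedtools and HOMER without their roles. Thresholds and the treatment of duplicates or reads with several matches were not given in the sources used here. Peak names write A1299, which was read as H1299 because the series has 1 IP. In the deposited list, fold enrichment is the peak caller's ratio between the IP and its local background. The p-value and the FDR, a q-value, are deposited on a linear scale. The deposited pileup is a signal, the IP coverage in scaled fragments, and length is in bp. Library totals and coverage by position were not used here.

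To recover the local background, 1 was added to the pileup, the sum was divided by fold enrichment, and 1 was subtracted. Peaks were placed by midpoint on 58957 gene spans of RefSeq GRCh38.p14, 19862 of them protein-coding. Another 835 entries of the table were left out because they had no coordinates on an assembled chromosome, carried those of other scaffolds or lay outside chromosomes 1 to 22, X and Y, among them 58 given as chromosome 19. Densities refer to 24.4 Mb for 19p and to the stretch up to the last gene or peak elsewhere, gaps included, and contigs were left out. Named genes were the 10 with the most peaks, those at the 10 peaks leading in fold enrichment or in pileup, the 10 with the most peaks per 10 kb, those with a start within a peak or a promoter window touched by one, some at the longest peaks or runs, noncoding genes with several peaks, and members of 9 gene lists. The members and lists were chosen with earlier results of these data known. Peaks of 1 list are not replicates, so no test was run. Alternatives were stricter thresholds on FDR or fold enrichment, merged peaks, a limit of 20 Mb, other spans, other overlaps, other TSS distances and all RefSeq genes. Placement was tested on simulated data. Computations used Python 3.11.15, numpy 2.4.6, pandas 2.3.3 and scipy 1.17.1, and plots used matplotlib 3.10.9.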

Additional observations from a re-analysis of the deposited data

How the results depend on the processing

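The 10 main values of 19p were recomputed under the alternatives, which gave 57 values, and 31 of them lay within the 95% interval of the main value. With only the 128 peaks of the arm with an FDR under 0.05, density was 5.25 peaks per Mb, its ratio to the other chromosomes 5.44, median spacing 102.6 kb, median length 327 bp, median pileup 9.73 and median fold enrichment 4.73. The share in a protein-coding gene was then 63.3%, the share within 1 kb of a TSS 3.91% and the share of genes with a peak 11.7%. With only the 31 peaks enriched at least 5 times, these values were 1.27 peaks per Mb, a ratio of 5.89, 280.4 kb, 357 bp, a pileup of 11.7, a fold enrichment of 5.41, 61.3% in a protein-coding gene and 2.97% of genes, while the share within 1 kb of a TSS was 6.45% and within the main interval. Fewer and higher peaks follow from these thresholds by construction. The ratios under these thresholds had intervals of 4.52 to 6.50 and 3.97 to 8.45, the shares in a protein-coding gene 54.7% to 71.1% and 43.8% to 76.3%, and the share near a TSS under the FDR threshold 1.68% to 8.82%. Each included the main value, so these differences were not detectable at this number of peaks, and their cause was not tested. The ratio was above 4 in every alternative run.

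Merging peaks less than 1000 bp apart gave 27.6 peaks per Mb and a median spacing of 20.7 kb. Ending the arm at 20 Mb gave 35.2 peaks per Mb and a ratio of 5.35. With all RefSeq genes, 73.7% of peaks lay in a gene and 27.2% of genes held a peak. The share near a TSS was 2.19% within 500 bp and 14.9% within 3000 bp, and adding 1000 bp to either side of genes gave 47.8% of genes with a peak. These follow from the construction. Alternatives chosen after seeing the data, keeping the gene entries of other scaffolds and leaving out the 6 high pileups near OR2Z1, moved no value beyond its interval.

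A paired analysis was not possible with 1 IP and 1 input library. Depth limits single peaks, since the median peak of the arm rests on 8 fragments, peaks were listed from 5 fragments upward and 48 of the 731 had an FDR of 1. The list has no entry for coverage that the caller did not pass, so a gene without a peak is not shown to be unbound.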

Other observations

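Of 186 long noncoding RNA genes 32 held a peak, 17.2% (Wilson 95% interval, 12.5% to 23.3%), with a median length of 6.30 kb, and the interval overlapped that of the protein-coding genes of 5 to 10 kb, 15.0% to 30.2%. Of 25 transcribed pseudogenes 7 did, 28.0% (14.3% to 47.6%), and of 237 other pseudogenes, with a median length of 0.654 kb, 7 did, 2.95% (1.44% to 5.97%). These shares were not compared with those of the same kinds of gene on the other chromosomes. They describe the arm only and do not show whether a kind was rich or poor in peaks. While 45 peaks of the arm lay only in a gene that is not protein-coding, others lay where a noncoding gene overlaps a protein-coding one. ADGRL1-AS1 held 5 peaks and DOCK6-AS1 held 4, among them the peak with the highest fold enrichment of the arm, so these peaks cannot be assigned to either strand. CYP4F24P, a pseudogene of the cytochrome cluster, held 4 peaks with fold enrichments up to 4.71. WASH5P, next to the end of the chromosome, held 3 with fold enrichments up to 4.88, and LINC01002 held 2.

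The gene table lists 46 microRNA genes on the arm, of which the sequence table gives the hairpins of 44. Of these 44, 1 lay wholly within a peak. It was MIR6792, at chr19:7617439-7617505 on the + strand within CAMSAP3, a gene for a protein of microtubule minus ends, and the peak ran from 7617251 to 7617517 with an FDR of 0.101, a pileup of 8.76 and a fold enrichment of 4.07. Its mature sequences in RefSeq (GRCh38.p14) are given with the seed in capitals.
miR-6792-5p: gUAAGCAGgggcucuggguga
miR-6792-3p: cUCCUCCAcagccccugcucau
Hairpins of MIR4321, MIR3187, MIR5589 and MIR7108 lay 141 to 220 bases from a peak.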
